A study of Mus musculus with 491 samples.

Results

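The genes described are the Notch ligands, the Notch receptors and the Fringe enzymes that modify the receptors. They were taken by name, with no cut-off on a measured value, although earlier results of these data were known. The list holds the ligands Dll1, Dll3, Dll4, Jag1 and Jag2, the receptors Notch1, Notch2 and Notch3, and the Fringe genes Lfng and Mfng. They are 10 of the 19494 genes with a usable row in an expression table of 491 single cells from mouse embryos at E10.5. The cells came from otic vesicle and periotic tissue of 1 genotype, Pax2-Cre/+;Ai14-tdTomato/+, and were sorted as tdTomato+, so every cell had expressed Cre from a Pax2-driven transgene or descended from one that had. No sample had another genotype, stage, treatment or sort gate, and the comparisons below are therefore between cell classes within the same tissue. Replicate 1 held 237 cells and replicate 2 held 254 cells, each over 3 of the 6 plates. The labels do not say whether a replicate is 1 embryo, 1 litter or 1 day of work. The p-values therefore measure only how class differences vary between these replicates, and that spread may be technical. It was pooled over all cell classes, so a gene has the same standard error in every comparison. The series asks how neuroblasts that leave the otic vesicle change their gene expression.

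In Notch signalling a ligand of the Delta or Jagged family on one cell binds a Notch receptor on its neighbour. The receptor is then cleaved, and its intracellular part enters the nucleus, where with Rbpj it activates target genes such as those of the Hes and Hey families. A cell that makes more Delta can thereby hold back neuronal differentiation in its neighbours, a process called lateral inhibition that limits how many neuroblasts form in the otic and neural epithelium, whereas Jag1 marks the prosensory otic epithelium. Fringe enzymes add a sugar to the receptor's extracellular repeats and alter its response to Delta and Jagged ligands.

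The values are log2(FPKM + 1), FPKM being fragments scaled to the length of the transcript and to the mapped fragments of the cell, and a gene was counted as found in a cell at an FPKM of at least 1. Between 2552 and 6403 genes were found per cell (median 4513), and the read depth is unknown because no counts were used here. The table carries no cell types, so cells were clustered on marker genes that did not include any of the 10 genes, which gave 11 clusters and 8 classes: 151 otic epithelium-like cells (Epcam in 96.0%, Oc90 in 55%, Pax2 in 13.9%), 48 early neuroblast-like (Neurod1 in 89.6%; neuroblast-like below), 48 differentiating neuron-like (Stmn2, Tubb3 and Pou4f1 in 100%), 42 epibranchial neuron-like (Tlx3 in 64.3%), 115 neural tube progenitor-like (Fabp7 in 98.3%), 37 surface ectoderm-like (Trp63 in 97.3%), 23 mesenchyme-like (Col3a1 in 91.3%), and cluster 8 with 27 cells. Cluster 8 stays unnamed because it carried neuronal (Tubb3 in 92.6%) and neural tube (Fabp7 in 59.3%) markers together. Wells of the same column, most of them in neighbouring rows, shared part of their RNA profile: 337 cells had a traced source well, and 154 cells had none. This sharing is called carry-over below, and its cause was not tested. Rare genes (found in 2 to 5 cells) that were found in both wells, and lower in the receiving well, had there a median of 7.11% of their FPKM in the source well. Fabp7, a neural tube marker, was listed in 23.8% of the otic epithelium-like class as deposited and in 5.3% after values below 15% of the source well were set to 0, and corrected values are given below beside the shares they move. A further 7 cells (4 otic epithelium-like in replicate 1 and 3 neuroblast-like in replicate 2) carried endothelial, macrophage or erythroid markers, called foreign markers below.

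Over all cells Jag1 was the most often found of the 10 genes and Dll4 the least. Jag1 was found in 62.9% of cells (95% Clopper-Pearson interval 58.5 to 67.2%, which covers counting error only), Mfng in 48.5%, Notch1 in 45.2%, Dll3 in 32.6% and Dll1 in 32.0%. Notch3 was found in 15.9% of cells, Jag2 in 9.98%, Lfng in 9.16%, Notch2 in 4.48% and Dll4 in 2.44%. The genes also differed in level: where found, Dll3 had a median of 52.8 FPKM, Mfng 46.4, Dll1 28.0 and Jag1 23.2, whereas Notch1 had 5.67, Notch2 4.85 and Notch3 3.35. A threshold in FPKM therefore removes receptor values sooner than values of Dll3 or Mfng. A cell held a median of 3 of the 10 genes (range 0 to 7), and this number had a correlation with the number of all genes found of -0.0059 over the 491 cells, which share plates; within the 8 classes it lay between -0.0621 in cluster 8 and 0.234 in epibranchial neuron-like cells.

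**Figure D1:**
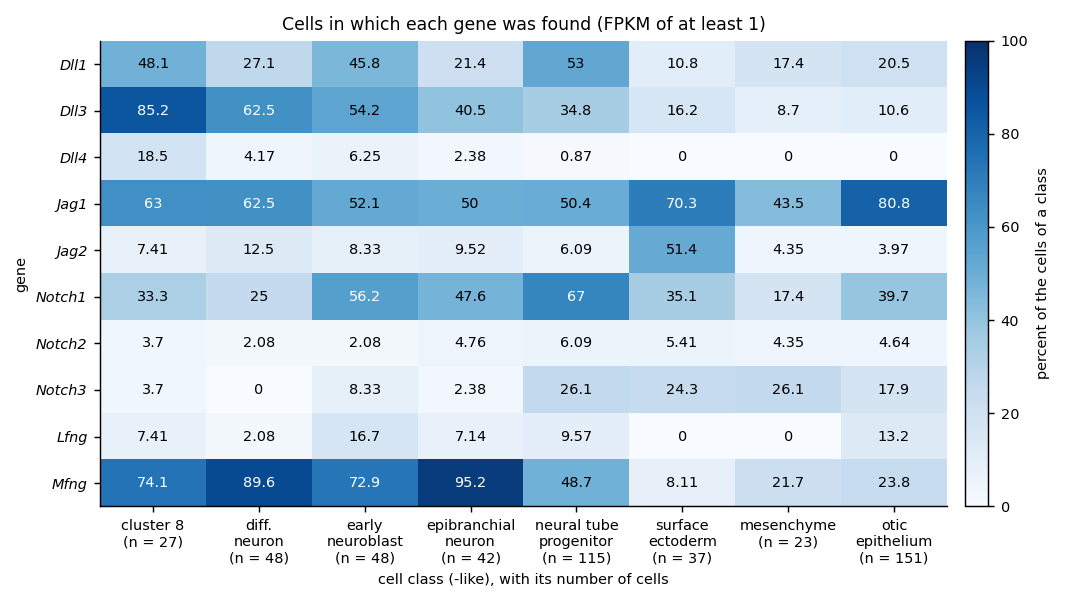
Percent of cells in which each of the 10 genes (rows) was found at an FPKM of at least 1, for each class (columns), as numbers on a colour scale from 0 to 100%. Mfng is highest in epibranchial neuron-like cells (95.2%), Dll3 in cluster 8 (85.2%), Jag1 in otic epithelium-like cells (80.8%) and Jag2 in surface ectoderm-like cells (51.4%).

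Differences between classes were tested with limma on the mean of each class in each replicate (16 means, replicate as a block), with adjustment over the 10194 genes found in at least 5% of cells. Of the 10 genes 8 passed that filter; Dll4 and Notch2 did not. Over 10 comparisons 20 of 80 tests of these 8 genes passed an adjusted p of 0.05. Neuroblast-like cells were higher than otic epithelium-like cells for 3 of the 8, Dll1, Dll3 and Mfng, where 0.902% of all tested genes were higher and 2.4% lower. None passed between differentiating neuron-like and neuroblast-like cells, where 2.6% of all genes were higher and 1.01% lower. At an unadjusted p below 0.05 the limma test gave 4 of the 8, Dll1, Lfng, Mfng and Notch1. The share of all tested genes at that unadjusted threshold was not computed, so this count has nothing to be set against. Against otic epithelium-like cells, differentiating neuron-like cells had 2 of 8 higher (5.5% of all genes were higher and 7.95% lower) and epibranchial neuron-like cells had 2 higher and 1 lower (5.1% and 6.97%). In the same way cluster 8 had 3 of 8 higher (4.61% higher and 14.8% lower over all genes), and neural tube progenitor-like cells 3 higher and 1 lower (1.43% and 4.52%). Surface ectoderm-like cells had 1 of 8 higher (1.74% higher and 2.14% lower over all genes) and mesenchyme-like cells 1 lower (2.32% and 3.14%). Cluster 8 was higher than neural tube progenitor-like cells for 2 of 8 (3.34% higher and 5.1% lower over all genes) and higher than neuroblast-like cells for 1 (2.84% and 7.63%). The median difference of the 8 genes was 0.42 between neuroblast-like and otic epithelium-like cells, against -0.10 over all tested genes, and 0.54 between neural tube progenitor-like and otic epithelium-like cells, against -0.18. In the other 8 comparisons it lay between -0.29 and 0.24, against -0.29 to 0.06 over all tested genes. In cells with no source well 11 of the 19 calls that could be repeated ended, among them all 3 of neuroblast-like against otic epithelium-like cells, over 15 and 51 cells: Dll1 differed there by 2.18, Dll3 by 3.53 and Mfng by 3.34 (limma adjusted p = 0.329, 0.0581 and 0.142). The comparisons against otic epithelium-like cells share those cells, and the classes were built from markers in the same cells, which the p-values do not allow for.

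**Figure D2:**
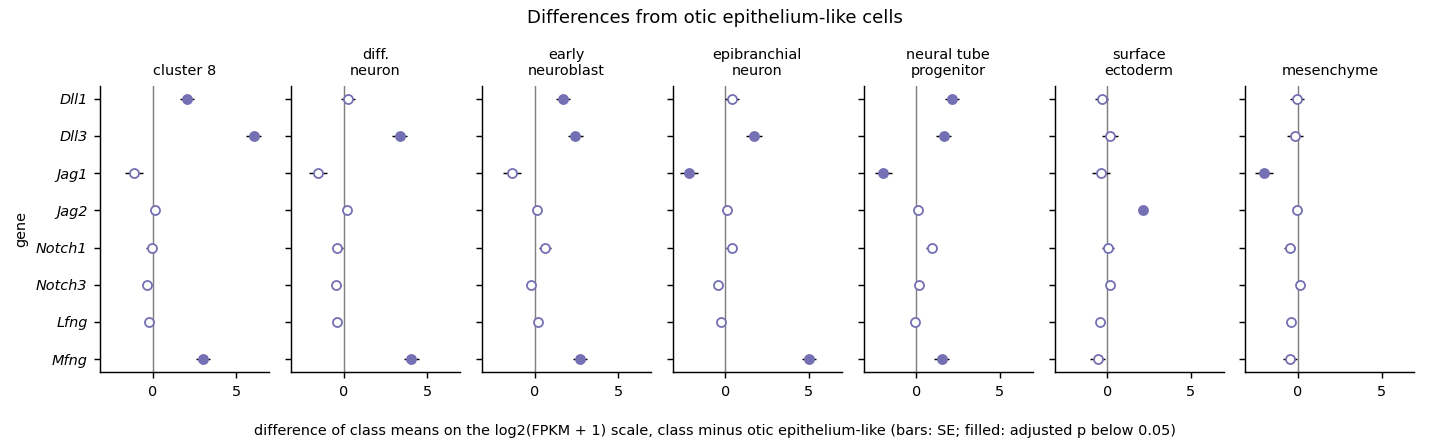
Difference of class means on the log2(FPKM + 1) scale (horizontal axis), each class minus otic epithelium-like cells, for the 8 tested genes (rows); bars are standard errors from limma and filled points have an adjusted p below 0.05. Filled points lie right of 0 for Dll1, Dll3, Jag2 and Mfng and left of 0 for Jag1.

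The Delta ligands Dll1 and Dll3 were higher in neuroblast-like cells, in neural tube progenitor-like cells and in cluster 8 than in otic epithelium-like cells, and Dll3 also in both neuron-like classes. Dll1 (ENSMUSG00000014773, GRCm38 chromosome 17, 15367354 to 15376872, minus strand), which activates Notch on neighbouring cells, was found in 22 of 48 neuroblast-like cells (45.8%), against 31 of 151 otic epithelium-like cells (20.5%). Its mean was 2.19 and 2.58 on the log2(FPKM + 1) scale in neuroblast-like cells of replicates 1 and 2, against 0.67 and 0.74 in otic epithelium-like cells. Both replicates of the neuroblast-like class lay above both of the epithelium. The difference was 1.68 (SE 0.414; limma adjusted p = 0.0294) and had the same sign in 6 of 6 plates. Where found, Dll1 had a median of 51.7 FPKM in neuroblast-like cells and 10.11 FPKM in otic epithelium-like cells, so the few epithelial values were also lower. After correction for carry-over it was found in 20 of the 48 neuroblast-like and 16 of the 151 epithelium-like cells. With no filter on low values the limma adjusted p was 0.0553.

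The step to differentiating neuron-like cells did not pass for Dll1. It averaged 0.82 and 1.14 in differentiating neuron-like cells, against 2.19 and 2.58 in neuroblast-like cells, a difference of -1.40 (SE 0.414; limma adjusted p = 0.0714). It passed when the cells were clustered more coarsely, at a Leiden resolution of 0.6 (-1.68; limma adjusted p = 0.0152). The replicates of these classes did not overlap. Across all classes the order of Dll1 was neural tube progenitor-like (2.86), cluster 8 (2.75), neuroblast-like (2.38), epibranchial neuron-like (1.12), differentiating neuron-like (0.98), otic epithelium-like (0.71), mesenchyme-like (0.65) and surface ectoderm-like (0.37). The first 3 overlapped with their neighbours in this order, and a gap between replicates separated them from the remaining classes. Dll1 was higher than in otic epithelium-like cells also in neural tube progenitor-like cells, by 2.16 (limma adjusted p = 0.00278; 6 of 6 plates), and in cluster 8, by 2.04 (limma adjusted p = 0.00189; 5 of 6 plates). Its highest single value, 774 FPKM, was in a neural tube progenitor-like cell.

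Dll3 (ENSMUSG00000003436, chromosome 7, 28293553 to 28302238, minus strand) encodes a divergent Delta that acts within the cell that makes it and does not activate Notch on neighbours. It was found in 26 of 48 neuroblast-like cells (54.2%), against 16 of 151 otic epithelium-like cells, and after correction in 22 and 3. Its mean was 2.55 and 3.08 in neuroblast-like cells, against 0.37 and 0.35 in otic epithelium-like cells. The classes were far apart in both replicates, with a difference of 2.45 (SE 0.463; limma adjusted p = 0.004; 6 of 6 plates). In differentiating neuron-like cells it averaged 3.65 and 3.78, against the 2.55 and 3.08 of neuroblast-like cells, a difference of 0.90 (limma adjusted p = 0.37). The differentiating neuron-like level was 3.35 above that of otic epithelium-like cells (limma adjusted p = 5.05e-05), but only 1.59 (limma adjusted p = 0.421) in cells with no source well, where Dll3 was found in 4 of 12 differentiating neuron-like cells.

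Dll3 peaked in cluster 8. It was found in 23 of its 27 cells (85.2%; 21 after correction, and 5 of 5 cells with no source well) at a median of 234 FPKM, and averaged 6.0 and 6.80. Those means were above every replicate of every other class, the nearest being differentiating neuron-like cells at 3.65 and 3.78. Cluster 8 exceeded otic epithelium-like cells by 6.04 (SE 0.463; limma adjusted p = 1.19e-07), neural tube progenitor-like cells by 4.41 (limma adjusted p = 1.44e-05) and neuroblast-like cells by 3.59 (limma adjusted p = 9.69e-05), each in 6 of 6 plates. Dll3 stood at rank 4 among the genes that lead this cluster over the other cells, although it was not used to form it. Neural tube progenitor-like cells averaged 1.95 and 2.04 and epibranchial neuron-like cells 2.61 and 1.55, and these overlapped. Both lay above otic epithelium-like cells, by 1.64 (limma adjusted p = 0.0426) and 1.72 (limma adjusted p = 0.0194). The first of these ended as a call in 5 of the settings tried, among them the correction for carry-over (adjusted p = 0.0562).

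Dll4 (ENSMUSG00000027314, chromosome 2, 119325784 to 119335962, plus strand), a Delta best known from endothelium, was found in 12 cells. Of these 5 were in cluster 8 (18.5% of its cells), 3 were neuroblast-like, 2 differentiating neuron-like, 1 epibranchial neuron-like and 1 neural tube progenitor-like. It was in 0 of 151 otic epithelium-like cells, which allows a share of up to 1.99% when 3 cells are taken as the limit of a count of 0. In the neuroblast-like class 2 of the 3 cells with Dll4 were among those with foreign markers, which was the case for none of the 5 in cluster 8. The mean in cluster 8 was 0.79 and 0.82, and Dll4 was listed at 0 in both replicates of the otic epithelium-like class. With no filter on low values this passed (limma adjusted p = 0.000723).

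The promoters of Dll1, Dll3 and Jag1 are shown because Dll1 and Dll3 were higher and Jag1 was lower in neural tube progenitor-like than in otic epithelium-like cells. They are RefSeq windows on GRCm38.p6 from 250 bases before to 50 after a transcript start, at chr17:15376883-15377182, chr7:28301736-28302035 and chr2:137116471-137116770, all read from the minus strand, and capitals mark CAGCTG, an E-box letter pattern of the kind bound by proneural bHLH factors.
Dll1: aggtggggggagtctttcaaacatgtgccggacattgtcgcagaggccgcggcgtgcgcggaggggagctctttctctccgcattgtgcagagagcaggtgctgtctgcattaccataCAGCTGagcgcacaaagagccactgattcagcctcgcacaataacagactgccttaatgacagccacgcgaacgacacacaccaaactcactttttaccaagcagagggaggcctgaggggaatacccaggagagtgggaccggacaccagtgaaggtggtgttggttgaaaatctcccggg
Dll3: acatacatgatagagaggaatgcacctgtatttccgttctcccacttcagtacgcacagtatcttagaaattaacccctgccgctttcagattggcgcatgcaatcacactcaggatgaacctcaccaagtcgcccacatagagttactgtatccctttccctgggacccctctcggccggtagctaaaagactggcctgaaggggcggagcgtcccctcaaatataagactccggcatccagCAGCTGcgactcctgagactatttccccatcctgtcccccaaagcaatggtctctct
Jag1: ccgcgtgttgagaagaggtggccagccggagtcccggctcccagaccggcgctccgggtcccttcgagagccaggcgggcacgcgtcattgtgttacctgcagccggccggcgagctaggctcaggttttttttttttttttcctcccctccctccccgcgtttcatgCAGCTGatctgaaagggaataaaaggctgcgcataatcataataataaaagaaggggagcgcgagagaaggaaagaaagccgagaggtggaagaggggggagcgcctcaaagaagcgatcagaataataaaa
Each window holds 1 copy, which begins 132 bases before the start in Dll1, 7 before it in Dll3 and 82 before it in Jag1. The pattern reads the same on both strands and occurs in 16.3% of 32851 promoters of the same length, and it is in all 3 windows shown. A second Dll1 window and the windows of Dll4, Jag2, Notch1, Notch2 and Notch3 hold no CAGCTG, and that of Lfng holds 2. The E-box CAGATG, which reads as CATCTG on the other strand and occurs in 17.2% of promoters, was in none of the windows shown. GTGGGAA, a pattern bound by Rbpj that reads as TTCCCAC on the other strand and occurs in 6.38% of promoters, was in that of Lfng and not in those shown. These matches describe letters and show no binding.

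Jag1 was the ligand found most often in otic epithelium-like cells, and 3 other classes were lower. Jag1 (ENSMUSG00000027276, chromosome 2, 137081456 to 137116644, minus strand) activates Notch in prosensory patches of the ear and was in 122 of the 151 cells of that class (80.8%; 116 after correction). Epibranchial neuron-like cells had it in 21 of 42 cells and averaged 1.79 and 1.77, against 3.74 and 4.15 in otic epithelium-like cells. The classes did not overlap, and the difference was -2.16 (SE 0.528; limma adjusted p = 0.0106; 6 of 6 plates). Neural tube progenitor-like cells (1.75 and 2.19) differed from the same epithelium by -1.97 (limma adjusted p = 0.0317), and mesenchyme-like cells (1.29 and 2.53) differed by -2.03 (limma adjusted p = 0.0284). Each of these differences had the same sign in 6 of 6 plates. Both of the last pair missed the threshold with a pseudocount of 0.1 (limma adjusted p = 0.0518 and 0.0657) and with no filter on low values (0.0888 and 0.0763).

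Between the neuroblast-like or differentiating neuron-like class and the epithelium, no Jag1 difference passed. Neuroblast-like cells averaged 3.2 and 1.96, against 3.74 and 4.15 in otic epithelium-like cells, a difference of -1.36 (SE 0.528; limma adjusted p = 0.245). The replicates of the neuroblast-like class differed from each other by nearly as much. Differentiating neuron-like cells averaged 2.1 and 2.74 and differed from otic epithelium-like cells by -1.52 (limma adjusted p = 0.0662). Weighting each mean by its number of cells brought both past the threshold, at -1.61 for the neuroblast-like class (limma adjusted p = 0.0156) and -1.51 for the differentiating neuron-like class (limma adjusted p = 0.00826). The second also passed with plate means (limma adjusted p = 0.0336) and after correction for carry-over (-1.65; limma adjusted p = 0.049). Jag1 was still found in 52.1% of neuroblast-like and 62.5% of differentiating neuron-like cells.

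Jag2 (ENSMUSG00000002799, chromosome 12, 112907819 to 112929776, minus strand), the second Jagged ligand, was found in 19 of 37 surface ectoderm-like cells (51.4%; 19 after correction). Its mean was 1.97 and 2.58 in surface ectoderm-like cells, against 0.20 and 0.12 in otic epithelium-like cells. No replicate of another class reached 1, and the difference was 2.12 (SE 0.236; limma adjusted p = 1.43e-05; 6 of 6 plates). The next class was differentiating neuron-like, with 6 of 48 cells and means of 0.61 and 0.16. Jag1 was also frequent in surface ectoderm-like cells (26 of 37; 3.81 and 3.34), at a level whose replicates overlapped with those of otic epithelium-like cells (3.74 and 4.15).

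**Figure D3:**
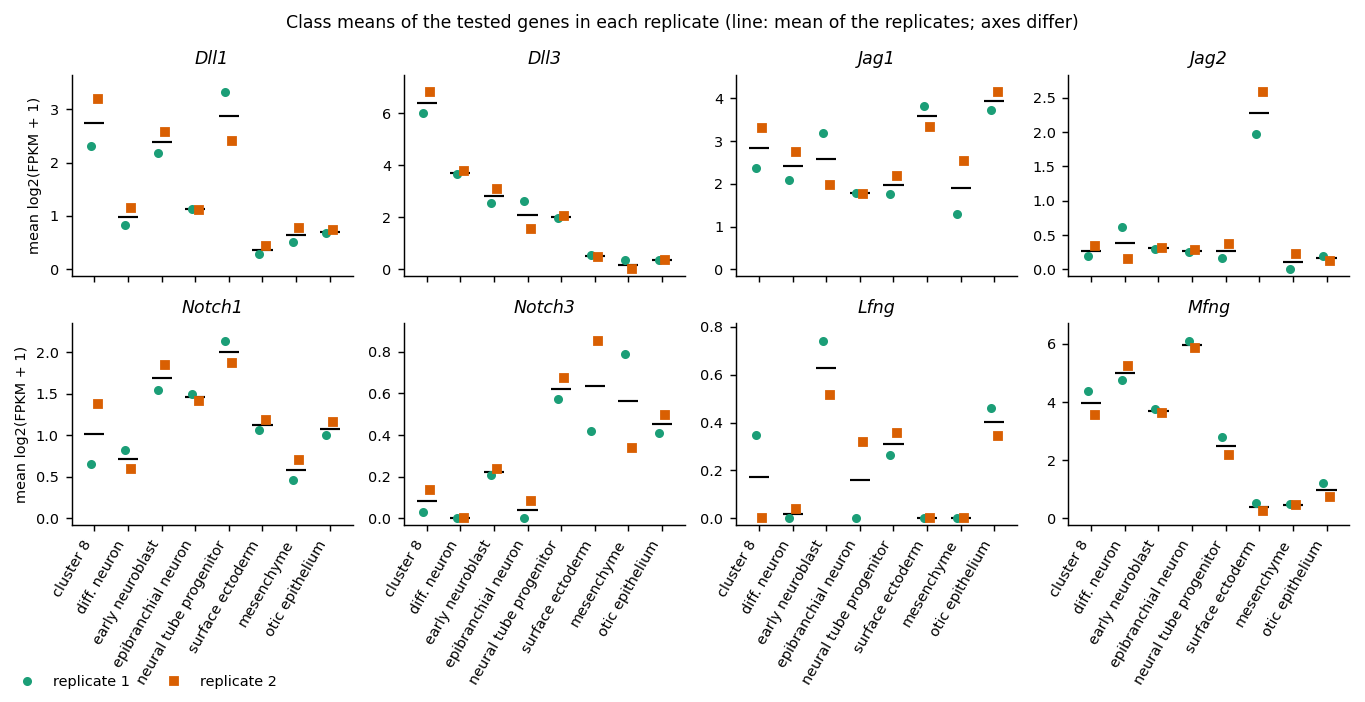
Mean log2(FPKM + 1) of the 8 tested genes in each class (horizontal axis), with a circle for replicate 1, a square for replicate 2, a line at their mean, and a vertical axis of its own for each gene. Cluster 8 stands above the other classes for Dll3 (6.0 and 6.80), surface ectoderm-like cells for Jag2 (1.97 and 2.58) and epibranchial neuron-like cells for Mfng (6.09 and 5.85).

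No receptor difference passed in the 10 comparisons. Notch1 (ENSMUSG00000026923, chromosome 2, 26457903 to 26516663, minus strand) was found in 77 of 115 neural tube progenitor-like cells (67.0%), 27 of 48 neuroblast-like cells (56.2%) and 12 of 48 differentiating neuron-like cells (25%), against 60 of the 151 cells of the otic epithelium-like class (39.7%). Its mean was 2.14 and 1.87 in neural tube progenitor-like cells, against 1.0 and 1.16 in otic epithelium-like cells. These did not overlap, but the difference of 0.92 (SE 0.346) had a limma adjusted p of 0.158. It passed when means were weighted by their number of cells (adjusted p = 0.0038). Neuroblast-like cells averaged 1.55 and 1.84 and also lay above both epithelial replicates (difference 0.61; limma adjusted p = 0.533). In differentiating neuron-like cells the mean was 0.83 and 0.60, against 1.55 and 1.84 in neuroblast-like cells, a difference of -0.98 (limma adjusted p = 0.143). In each replicate the mean of Notch1, like that of Dll1, was lower in the neuron-like than in the neuroblast-like class.

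Notch3 (ENSMUSG00000038146, chromosome 17, 32120820 to 32166852, minus strand) was found in 30 of 115 neural tube progenitor-like cells (26.1%), 9 of 37 surface ectoderm-like cells (24.3%), 6 of 23 mesenchyme-like cells (26.1%) and 27 of 151 otic epithelium-like cells (17.9%). It was found in 4 of 48 neuroblast-like cells, in 1 epibranchial neuron-like cell and in 1 cell of cluster 8. None of the 48 differentiating neuron-like cells had it, which allows a share of up to 6.25% by the same limit of 3 cells. Its mean was listed at 0 in both replicates of that class, against 0.41 and 0.50 in otic epithelium-like cells (limma adjusted p = 0.156; 0.0314 when means were weighted by their number of cells). Notch2 (ENSMUSG00000027878, chromosome 3, 98013527 to 98150361, plus strand) was found in 22 cells spread over all 8 classes, in 2.08 to 6.09% of each. It was found in 6.75% of the cells of replicate 1 and 2.36% of those of replicate 2.

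Mfng was higher than in otic epithelium-like cells in 5 classes, all of them neuronal or neural by their markers. Mfng (ENSMUSG00000018169, chromosome 15, 78755882 to 78773475, minus strand), manic fringe, was found in 40 of 42 epibranchial neuron-like cells (95.2%), 43 of 48 differentiating neuron-like cells (89.6%) and 35 of 48 neuroblast-like cells (72.9%), against 36 of 151 otic epithelium-like cells (23.8%, and 18 cells after correction). Its mean was 3.77 and 3.61 in neuroblast-like cells, against 1.2 and 0.72 in otic epithelium-like cells. The classes did not overlap, with a difference of 2.73 (SE 0.433; limma adjusted p = 0.000884; 6 of 6 plates). Differentiating neuron-like cells averaged 4.76 and 5.25 and exceeded the epithelium by 4.05 (limma adjusted p = 2.85e-06). Epibranchial neuron-like cells averaged 6.09 and 5.85 and exceeded it by 5.01 (limma adjusted p = 4.83e-07). The further step from neuroblast-like to differentiating neuron-like cells was 1.31 (limma adjusted p = 0.114). It passed with plate means (1.41; limma adjusted p = 0.0496) and at Leiden resolution 0.6 (1.79; limma adjusted p = 0.0177).

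The order of Mfng was epibranchial neuron-like, differentiating neuron-like, cluster 8 (4.39 and 3.55), neuroblast-like (3.77 and 3.61), neural tube progenitor-like (2.79 and 2.16), otic epithelium-like, mesenchyme-like (0.49 and 0.45) and surface ectoderm-like (0.51 and 0.27). Cluster 8 and neuroblast-like cells overlapped, as did the last pair. Cluster 8 exceeded otic epithelium-like cells by 3.01 (limma adjusted p = 7.99e-05) and neural tube progenitor-like cells by 1.5 (limma adjusted p = 0.0376). Neural tube progenitor-like cells exceeded otic epithelium-like cells by 1.51 (limma adjusted p = 0.0452). The last of these ended as a call without the replicate block (limma adjusted p = 0.0551), with a pseudocount of 0.1 (0.0575) and with upper-quartile scaling (0.0595). It also ended in cells with no source well. The difference of cluster 8 from neural tube progenitor-like cells ended after correction for carry-over (limma adjusted p = 0.0849) and in other settings.

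Lfng (ENSMUSG00000029570, chromosome 5, 140607320 to 140615545, plus strand), lunatic fringe, was found in 45 cells. Neuroblast-like cells had it in 8 of 48 (16.7%), the otic epithelium-like class in 20 of 151 (13.2%) and neural tube progenitor-like cells in 11 of 115 (9.57%). It was in 1 of 48 differentiating neuron-like cells. Its mean was 0.74 and 0.52 in neuroblast-like cells, against 0.46 and 0.34 in otic epithelium-like cells, a difference of 0.23 (limma adjusted p = 0.724). Between differentiating neuron-like and neuroblast-like cells the difference was -0.61 (limma adjusted p = 0.0615), which passed in 4 of the settings tried. Within the otic epithelium-like class, Lfng was found in 12 of 59 cells of cluster 2 (20.3%) and 6 of 27 cells of cluster 9 (22.2%), against 2 of 65 cells of cluster 1 (3.08%). Jag1 did not follow that split, being found in 83.1%, 81.5% and 78.5% of the same clusters. Of the 20 Lfng cells of the epithelium 19 also had Jag1, where the product of the shares gives 16.2.

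The other genes of the pathway were described from a list of 43 processing enzymes, modifiers, effectors and targets, of which 40 were tested. In neuroblast-like cells against otic epithelium-like cells 2 of 40 rose and none fell: Hes6, an inhibitor of Hes1 activity, by 3.51 (limma adjusted p = 4.39e-05), and Dlk2, a non-canonical ligand, by 1.59 (limma adjusted p = 0.000113). Over all tested genes 0.902% were higher and 2.4% lower. Differentiating neuron-like cells against neuroblast-like cells gave 2 lower, Hes1 at -2.30 (limma adjusted p = 0.00655) and Dlk2 at -1.30 (limma adjusted p = 0.000863). In that comparison 2.6% of all tested genes were higher and 1.01% lower. Hes1, the Notch target that represses proneural genes, was also lower than in otic epithelium-like cells in differentiating neuron-like cells (-3.73), epibranchial neuron-like cells (-3.13) and cluster 8 (-2.59). In those 3 classes Dll3 and Mfng were higher than in the same epithelium. They were also higher in neuroblast-like and neural tube progenitor-like cells, where Hes1 was not called lower. Against the epithelium, differentiating neuron-like and epibranchial neuron-like cells each had 2 of 40 higher and 1 lower. Over all tested genes 5.5% were higher and 7.95% lower in differentiating neuron-like cells, and 5.1% and 6.97% in epibranchial neuron-like cells, so these counts do not set the list apart. Of the 40, Hes6 was higher by 3.49 and 3.29, and beside it Rfng, the third Fringe gene, by 1.5 in the first class and Dnm2, a dynamin of endocytosis, by 1.82 in the second.

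Hes5, another Notch target, marked the neural tube progenitor-like class. Its mean was 6.61 and 7.32 in neural tube progenitor-like cells, against 1.22 and 0.87 in otic epithelium-like cells, a difference of 5.92 (limma adjusted p = 9.15e-07). The targets and modifiers Nrarp (2.26) and Dtx4 (1.69) were higher there as well, so 3 of 40 were higher and none lower. Over all tested genes 1.43% were higher and 4.52% lower. Cluster 8, which exceeded neural tube progenitor-like cells in Dll3, was lower than them in Hes5 (-2.34), Dtx4 (-2.30), Hes1 (-1.96) and Nrarp (-1.72), and 2 of the 40 genes were higher. In that comparison 3.34% of all tested genes were higher and 5.1% lower. Against neuroblast-like cells cluster 8 had 3 of 40 higher and 2 lower (2.84% and 7.63% over all tested genes), with Hes5 at 2.5, Hes6 at -1.84, Dlk2 at -1.69 and Dner at 1.19. Against otic epithelium-like cells cluster 8 had 4 of 40 higher, with Hes5 at 3.59, Dner, a non-canonical ligand, at 1.68 and Hes6 at 1.67, and 2 lower. Over all tested genes 4.61% were higher and 14.8% lower, so the 2 lower genes do not set the list apart. Surface ectoderm-like cells had none of the 40 past the threshold (1.74% higher and 2.14% lower over all tested genes). Mesenchyme-like cells had 2 higher, Mib2 (1.08) and Aph1b (0.80), where 2.32% of all tested genes were higher and 3.14% lower.

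Ligands and receptors were often found in the same cell. Dll3 is counted here as a ligand and a Delta, although it does not activate Notch on neighbours. At an FPKM of at least 1, 235 of the 491 cells (47.9%; 95% interval 43.4 to 52.4%) had at least 1 ligand and at least 1 receptor, 189 (38.5%) had a ligand only, 31 (6.31%) a receptor only and 36 (7.33%) neither. These shares depend on the threshold, since receptors had low levels: with any value above 0 the share with both was 59.7%, and at an FPKM of at least 5 it was 23.4%. The cells with both and those with a ligand only had close medians of 4560 and 4525 genes found, while those with a receptor only had 4153.

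By class, neural tube progenitor-like cells had a ligand with a receptor most often, in 75 of 115 cells (65.2%; 55.8 to 73.9%), and neuroblast-like cells followed with 26 of 48 (54.2%; 39.2 to 68.6%). Otic epithelium-like cells had both in 71 of 151 (47.0%). Differentiating neuron-like cells had both in 12 of 48 (25%; 13.6 to 39.6%) and a ligand only in 30 (62.5%; 47.4 to 76.0%). In neural tube progenitor-like cells the share with both was 69.1% in replicate 1 and 61.7% in replicate 2, and in differentiating neuron-like cells it was 31.8% and 19.2%. All 27 cells of cluster 8 had a ligand, and 18 of them (66.7%) had no receptor found. The ligand was Dll3 in 23 cells, Jag1 in 17 and Dll1 in 13, with some cells holding more than 1. These differences between classes were not tested.

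**Figure D4:**
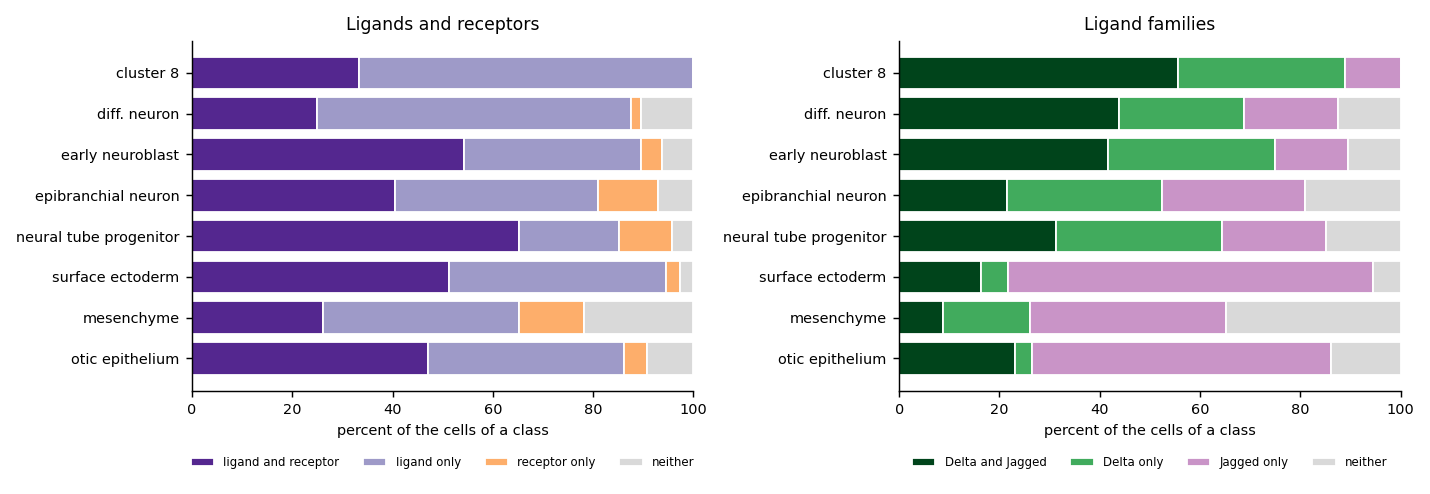
Percent of the cells of each class (horizontal axes) with a ligand and a receptor, a ligand only, a receptor only or neither (left), and with a Delta and a Jagged, a Delta only, a Jagged only or neither (right), at an FPKM of at least 1. The share with both is 65.2% in neural tube progenitor-like cells and 25% in differentiating neuron-like cells, where a ligand only is found in 62.5%.

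The kind of ligand separated the classes more than its presence. A Jagged without a Delta was in 14.6% of neuroblast-like cells, 18.8% of differentiating neuron-like cells, 3 of the 27 cells of cluster 8 and 73.0% of surface ectoderm-like cells, against 59.6% of the otic epithelium-like class. A Delta without a Jagged was found in 33.3% of neuroblast-like cells and in 3.31% of otic epithelium-like cells. Both kinds together were found in 55.6% of cluster 8, 43.8% of differentiating neuron-like and 41.7% of neuroblast-like cells, and in 23.2% of otic epithelium-like cells. After correction for carry-over both kinds were in 44.4% of cluster 8, 29.2% of differentiating neuron-like and 37.5% of neuroblast-like cells, and in 9.93% of the otic epithelium-like class. In cells with no source well they were in 4 of 12 differentiating neuron-like and 5 of 15 neuroblast-like cells, and in 2 of 51 cells of the epithelium.

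Within the neuroblast-like class Dll1 and Notch1 were found together more often than the product of their shares. Such counts within a class were not tested, since the cells of a plate share carry-over and are not replicates. Notch1 was found in 77.3% of the cells with Dll1, against 38.5% of those without, and 17 of 48 cells had both where the product of the shares gives 12.375. The excess was there in replicate 1 (6 against 3.94) and replicate 2 (11 against 8.44), after correction (17 against 11.25) and in the 15 cells with no source well (7 against 4.67). In neural tube progenitor-like cells the same pair was near the product (43 against 40.8). Higher Notch1 beside Dll1 was not particular to the neuroblast-like class. Its mean in replicates 1 and 2 was 2.56 and 2.67 in epibranchial neuron-like cells with Dll1, against 1.25 and 1.03 without. In differentiating neuron-like cells it was 1.12 and 0.90 against 0.76 and 0.44, and in otic epithelium-like cells 1.62 and 1.51 against 0.82 and 1.09. In mesenchyme-like cells the replicates disagreed. Over all cells, which mix classes, 96 had the pair, against 71.0. The neuroblast-like cells with Dll1 had Stmn2, a gene of neurite growth, in 18.2%, against 57.7% of those without Dll1. They had Neurog1, the proneural factor of the otic lineage, in 50.0% against 26.9%, and Sox2, a progenitor factor, in 63.6% against 30.8%. Of the 15 cells with no source well only 7 had Dll1, so shares among them rest on few cells. Stmn2 was in 14.3% of those with Dll1 and 50.0% of the others, and Neurog1 in 57.1% and 25%. Sox2 was in 42.9% and 50.0%, so the Sox2 shares were close there. Stmn2 and Neurog1 were among the markers that the clusters were built from. The cells with Notch1 had Stmn2 in 29.6%, against 52.4% of those without.

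**Figure D5:**
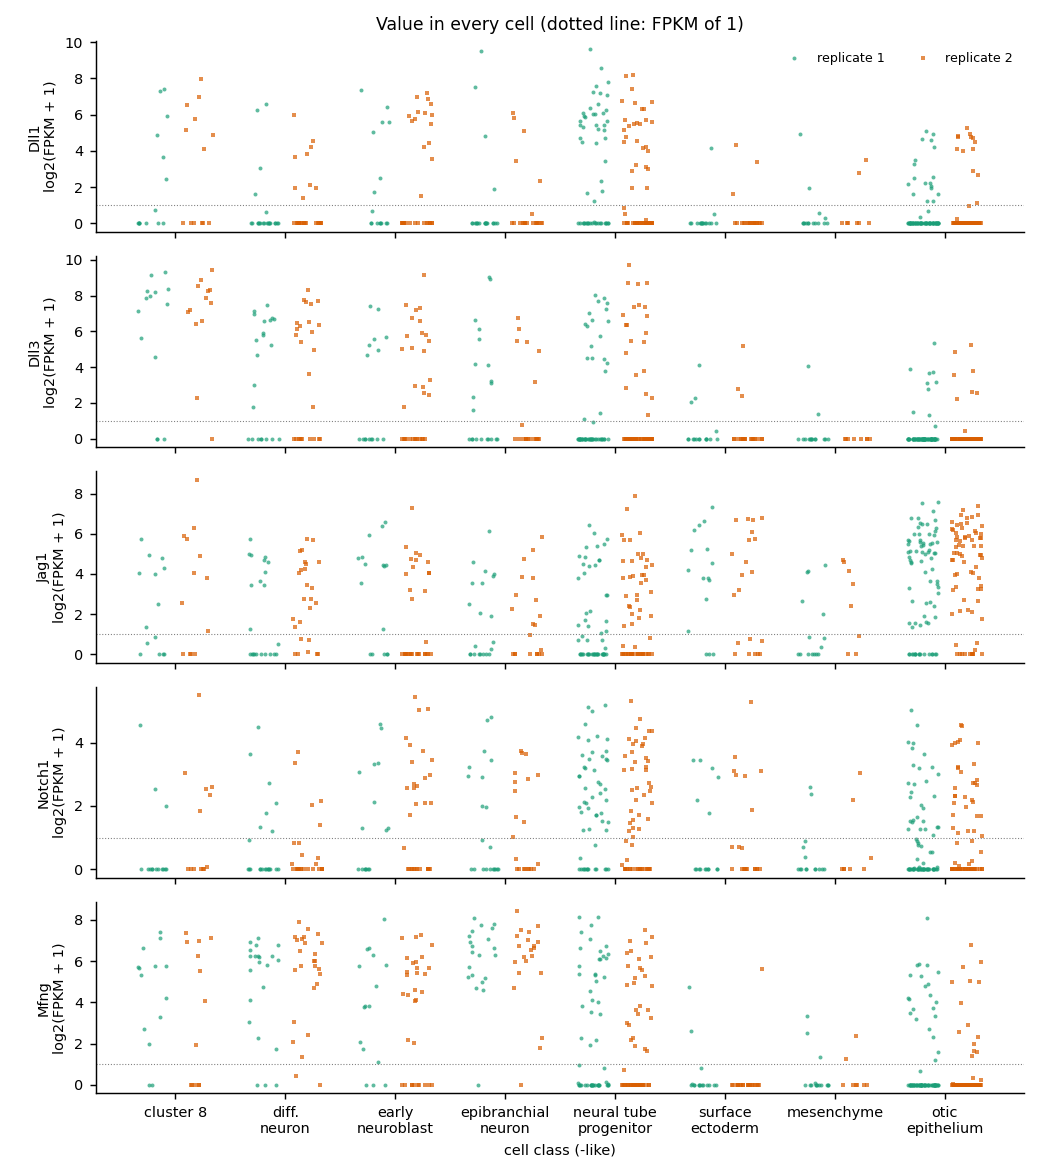
Log2(FPKM + 1) of Dll1, Dll3, Jag1, Notch1 and Mfng (vertical axes) in each of the 491 cells by class, with circles for replicate 1 and squares for replicate 2, spread sideways within a class so that they can be seen; the dotted line is an FPKM of 1. Within every class some cells have a value of 0 for each gene, and values where found span several log2 units.

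In neural tube progenitor-like cells Dll1 and Dll3 were each found with Mfng more often than the product of the shares. Mfng was found in 77.5% of the cells with Dll3, against 33.3% of those without (31 cells with both, where the product gives 19.5), and in 67.2% of the cells with Dll1, against 27.8% (41 against 29.7). Both excesses were there in each replicate, after correction (22 against 10.8 and 32 against 22.0) and in each of the clusters 0 and 6 that form the class. In the 39 cells with no source well all 8 cells with Dll3 had Mfng, where the product gives 3.49. Jag1 was found in 42.6% of the cells with Dll1, against 59.3% of those without (26 cells with both against 30.8), but the deficit was in cluster 0 (12 against 17.5) and not in cluster 6 (14 against 12.325).

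The neural tube progenitor-like cells with Dll1 also had Neurog2 and Hes6 more often. Neurog2, a proneural factor, was found in 45.9% of them, against 16.7% of those without Dll1, and Hes6 in 93.4% against 66.7%. After correction the Neurog2 shares were 43.6% and 15%. Hes5 was found in 86.9% of cells with Dll1 and 88.9% of those without, and its mean was 6.92 and 7.97 in cells with Dll1, against 6.15 and 6.76 in cells without. The 2 clusters of the class differed in Dll1 and in Neurog2, and Neurog2 was among the markers they were built from. Neurog2 was in 23 of 29 cells with Dll1 and 6 of 11 without in cluster 6, and in 5 of 32 cells with Dll1 and 3 of 43 without in cluster 0. Hes6 was in 28 of 29 and 8 of 11 in cluster 6, and in 29 of 32 and 28 of 43 in cluster 0. As deposited, cells with Dll3 had Stmn2 in 37.5%, against 9.33% of those without, and Hes1 in 70.0% against 89.3%. After correction for carry-over Dll3 was left in 27 of these 40 cells, and corrected Stmn2 and Hes1 shares are not given here. Stmn2, like Neurog2, was among the markers that the clusters were built from. Within the class, the 40 cells of cluster 6 had Dll1 in 72.5% and Dll3 in 47.5%, against 42.7% and 28.0% of the 75 cells of cluster 0.

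In otic epithelium-like cells the values beside Dll1 changed with the correction for carry-over. As deposited, Hes5 was found in 48.4% of the otic epithelium-like cells with Dll1, against 16.7% of those without. After correction Hes5 was in 2 of 16 cells with Dll1 and 6.67% of those without, and in cells with no source well Hes5 was in 0 of the 3 cells with Dll1 and in 6.25% of the others. Cluster 1 of the same class had Dll1 in 11 of 38 cells of replicate 1 and in 0 of 27 of replicate 2.

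The genes whose class means ran most like those of each gene were named by Pearson's r over the 16 means, which share cells, plates and depth. Dll3 was nearest to Miat (0.98), Ntn4 (0.96) and Chrna4 (0.92), and Mfng to Elavl4 (0.96), Tagln3 (0.95) and Scg3 (0.93). Dll1 was nearest to Tox3 (0.88), Pou3f2 (0.88) and Celsr2 (0.87). Jag1 was nearest to Vsig10 (0.91), Cdk18 and Bmp7 (0.87 each), and Jag2 had Pla2r1 (0.98) and Kremen2 (0.97) among its nearest. After correction for carry-over Pou3f2 was nearest to Dll1 (0.88), with Tox3 at rank 9, and Bmp7 to Jag1 (0.92), with Vsig10 at rank 6. Ntn4 had no corrected value. Notch1 had Sall1 (0.80), Notch3 had Smad3 (0.91) and Lfng had Dtna (0.86) as its nearest gene. Among the 8 themselves r was 0.65 for Dll1 with Dll3, 0.65 for Dll3 with Mfng, 0.64 for Dll1 with Notch1, -0.44 for Jag1 with Mfng and -0.83 for Notch3 with Mfng.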

How the data were processed

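SMARTer libraries of 491 sorted single cells were analysed from 1 deposited table of 19659 rows. Its log2 values are log2(FPKM + 1) as deposited: turned back to FPKM, 99.754% of values are numbers of 6 significant digits (tolerance 1e-07), and the authors' FPKM sum to 148501 to 439456 per cell (median 314943), with 74.9% zeros. FastQC, cutadapt, Bowtie, Bowtie2, TopHat, SAMtools, Cufflinks and mm10 are named in the submitters' processing notes, with no versions; no read counts were used, so depth is unknown. Symbols and coordinates came from GENCODE M21 (19630 rows matched; 132 rows of a repeated ID and 33 with no or a shared symbol were left out, leaving 19494 genes) and promoters from RefSeq, which matched 9 of the 10 genes.

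Cells were clustered on 66 of 88 listed markers (13 lists; 15 principal components, 15 neighbours, Leiden resolution 1) with scanpy 1.11.5 and leidenalg 0.10.2. Doublets were not called; cells with markers of endothelium, macrophages or erythroid cells were left out as an alternative. Carry-over was traced by genes found in 2 to 5 cells only, shared between wells of the same column along 19 links between plate rows, 17 of them between neighbouring rows of 1 plate; the correction set FPKM below 15% of the source well to 0. Class means per replicate (at least 5 cells) were tested with limma 3.58.1 (trend, replicate block, Benjamini-Hochberg over 10194 genes) in R 4.3.3; the step was tested on simulated data. The replicate block pairs class means of the same replicate, since these share plates. Differences are on the log2(FPKM + 1) scale and understate changes of low genes. Genes named beyond the 10 were up to 3 nearest by r and up to 4 called pathway genes with the largest difference per comparison; a few others are not reported here. The genes and lists were chosen with earlier results of these data known. Alternatives changed the block, unit of averaging, pseudocount, filter, scaling, clustering, wells and weights.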

Additional observations from a re-analysis of the deposited data

How the results depend on the processing

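Of the 20 called differences of the 10 genes, all 20 kept their sign without either replicate, at sizes of 1.21 to 6.45, but a count of calls without a replicate cannot be given, since no residual degrees of freedom remain. Without the replicate block 19 of the 20 were called (Mfng between neural tube progenitor-like and otic epithelium-like cells had adjusted p = 0.0551), and 319 genes in all passed between the neuroblast-like class and the epithelium. None of the 20 ended with plate means, the same FPKM sum per cell, weights or without the cells of foreign markers. With log2 of the mean FPKM 2 ended, with a pseudocount of 0.1 5, with no filter 4 (Dll1 between the neuroblast-like class and the epithelium had adjusted p = 0.0553), with upper-quartile scaling 1, with Leiden resolution 1.5 2, and after correction for carry-over 2. Mfng between cluster 8 and neural tube progenitor-like cells had adjusted p = 0.214, 0.0628, 0.11 and 0.0849 under log2 of the mean, pseudocount 0.1, resolution 1.5 and correction. In the 154 cells with no source well 8 differences were called in all; the 19 with a value were 0.475 to 1.63 times the main size (median 1.3). Of 60 uncalled differences 14 changed sign under some setting. The causes were not tested.

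Of all tested genes, in the order of comparisons of the text (early neuroblast-like, differentiating neuron-like against it, then differentiating, epibranchial, cluster 8, neural tube and surface ectoderm against the epithelium), cells with no source well gave 59, 4, 220, 253, 626, 73 and 80 calls, where all cells gave 337, 368, 1371, 1231, 1977, 607 and 395; cluster 8 gave 231 against neural tube progenitor-like and 502 against early neuroblast-like cells, where all cells gave 860 and 1068. Log2 of the mean FPKM gave 186, 213 and 169 for early neuroblast-like, differentiating against early, and surface ectoderm-like cells. Weights gave 764, 2417, 2161, 2223 and 714 for early neuroblast-like, differentiating, epibranchial, neural tube and surface ectoderm-like cells against the epithelium. Leiden resolution 0.6, which formed no cluster 8, gave 568 for differentiating against early cells. The other pathway genes had 32 calls over all comparisons, 16 at resolution 0.6 and 6 with no source well. Of all cells, a ligand with a receptor, a ligand only and neither were found in 59.7%, 29.9% and 4.68% at any value above 0, and in 23.4%, 53.8% and 17.5% at an FPKM of at least 5, against 47.9%, 38.5% and 7.33% at 1. With no source well a receptor only was in 11%; after correction a ligand with a receptor was in 42.6%, a receptor only in 9.78% and neither in 11%, against 6.31% with a receptor only as deposited.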
